A study of Mus musculus with 48 samples.

Results

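The 6 Fc receptor genes described here were taken by name from the 34586 genes of a mouse single-cell count table. They were chosen with earlier results of these data known. They are Fcer1g, which encodes the common gamma chain, the activating Fc gamma receptor genes Fcgr1, Fcgr3 and Fcgr4, the inhibitory receptor gene Fcgr2b, and Fcgrt, which encodes the heavy chain of the neonatal Fc receptor. All 6 were found, with 3501 unique molecular identifiers (UMIs, counts of captured RNA molecules) for Fcer1g, 627 for Fcgr3, 322 for Fcgr2b, 287 for Fcgrt, 46 for Fcgr1 and 21 for Fcgr4 in the 12096 cells that carried a cell type label.

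The cells came from male DBA1/J mice aged 8 to 12 weeks and were profiled with Seq-Well, in which single cells are lysed in microwells on barcoded oligo-dT beads. The 6 mice with collagen-induced arthritis (CIA) had received bovine collagen II in complete Freund's adjuvant and a booster in incomplete adjuvant on day 20, and the 4 healthy mice had received PBS, so that antigen and adjuvant cannot be told apart. Joint was sampled in 3 healthy and 5 CIA mice, and lung, muscle, skin and spleen in 4 healthy and 6 CIA mice each, 48 samples in all, from tissue that had been cryopreserved before dissociation. CIA mice S1, S2 and S3, each with an arthritis score of 8, and healthy mouse H3 belonged to the experiment labelled 2CIA, and CIA mice S5 (4 to 5), S6 (3 to 4) and S8 (2 to 3) and healthy mice H4, H6 and H7 to the experiment labelled CIA, so that in the diseased animals severity cannot be told apart from experiment.

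Cells bind the constant part of immunoglobulin G through Fc gamma receptors. Activating receptors pair with the common gamma chain, whose tyrosine motif recruits the kinase Syk, whereas Fcgr2b carries an inhibitory motif that recruits phosphatases and restrains both myeloid cells and B cells. The neonatal Fc receptor has another task: it pairs with beta-2 microglobulin, encoded by B2m, and returns immunoglobulin G from endosomes to the circulation. Antibodies against collagen and the immune complexes they form are a known part of this arthritis model.

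A labelled cell had a median of 675 UMIs (410 to 6239), and a sample had 17748 to 1645734 labelled UMIs. Levels are given as CPM, the UMIs of a gene per 1000000 UMIs of the same cells. Some libraries and labels stood apart. Of 1625 cells labelled myocytes, 1492 came from the muscle of mouse S6, and their myocyte markers (82.5 CPM in all, against 1928 in endothelial cells) were low while B cell markers were at 800.3 CPM, against 1673 in B cells, so they are called labelled myocytes below. Lists of markers summed highest in their own cell type for 8 of 13 labels, the exceptions being dendritic cells, monocytes, T cells, myocytes and neutrophils. The authors used the same lists to check or assign the labels, so this count is not independent of them. Libraries shared 59 cell barcodes, of which 36 were shared by the muscle and spleen of mouse S8. The joint of S5 (955 cells), the spleen of S2 (911) and the muscle of S6 (1989) were much larger than the other CIA libraries of these organs.

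On GRCm38 (GENCODE vM21), 4 of the 6 genes lie within 275749 bases of chromosome 1: Fcgr2b at chr1:170958617-170976547, Fcgr4 at chr1:171018920-171029761, Fcgr3 at chr1:171051174-171064935 and Fcer1g at chr1:171229572-171234365, all on the minus strand apart from Fcgr4. Fcgr1 (chr3:96282909-96293969) and Fcgrt (chr7:45092990-45103851) lie elsewhere, both on the minus strand. Fcgr2b overlaps the antisense gene Gm38204 and Fcgrt the antisense gene Gm45669, from which their reads could not be separated if strand was not used. Fcgr3 and Fcgr2b are close paralogs: 166 of the 1627 stretches of 50 bases in Fcgr3 transcripts also occur in Fcgr2b transcripts, but none of the 922 within 500 bases of an Fcgr3 transcript end do (33 of 1467 for Fcgr2b), which is where oligo-dT capture places most reads. The split of reads between these 2 genes is therefore uncertain to a small extent. No other pair of the members that was compared shared such a stretch.

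The promoters of the 3 activating receptors and of the inhibitory receptor are shown because these genes are compared below. Each runs from 250 bases before to 50 bases after the RefSeq start (GRCm38.p6), 5′ to 3′ on the strand of the gene, and all 6 members were matched. Capitals mark GAGGAA, read on either strand (its reverse complement is TTCCTC), and TTCNNNGAA, which is its own reverse complement. They are the core letters bound by the myeloid factor PU.1 and by STAT factors.
Fcgr1, chr3:96293920-96294219, minus strand: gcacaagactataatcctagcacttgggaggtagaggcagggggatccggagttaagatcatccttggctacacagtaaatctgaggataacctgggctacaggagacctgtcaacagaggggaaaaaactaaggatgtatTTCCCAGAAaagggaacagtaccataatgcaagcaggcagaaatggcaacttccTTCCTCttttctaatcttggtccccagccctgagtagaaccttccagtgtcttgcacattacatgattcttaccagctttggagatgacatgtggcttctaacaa
Fcgr3, chr1:171059354-171059653, minus strand: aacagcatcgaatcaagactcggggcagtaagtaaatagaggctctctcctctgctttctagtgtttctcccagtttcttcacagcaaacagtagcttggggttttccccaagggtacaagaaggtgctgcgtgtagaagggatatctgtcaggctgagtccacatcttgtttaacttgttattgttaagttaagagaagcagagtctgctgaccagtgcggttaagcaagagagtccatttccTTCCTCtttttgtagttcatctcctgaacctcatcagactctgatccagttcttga
Fcgr4, chr1:171018676-171018975, plus strand: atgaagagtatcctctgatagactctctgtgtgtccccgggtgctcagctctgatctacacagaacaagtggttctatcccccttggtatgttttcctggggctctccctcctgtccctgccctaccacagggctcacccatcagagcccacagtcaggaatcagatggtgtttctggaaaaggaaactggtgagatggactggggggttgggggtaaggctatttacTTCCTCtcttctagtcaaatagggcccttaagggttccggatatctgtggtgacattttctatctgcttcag
Fcgr2b, chr1:170976022-170976321, minus strand: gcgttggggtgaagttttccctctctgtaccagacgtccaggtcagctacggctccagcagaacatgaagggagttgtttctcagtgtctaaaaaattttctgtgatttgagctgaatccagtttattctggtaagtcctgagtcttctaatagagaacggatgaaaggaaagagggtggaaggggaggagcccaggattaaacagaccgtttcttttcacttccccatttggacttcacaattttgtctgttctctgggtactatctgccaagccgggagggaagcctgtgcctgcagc

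GAGGAA was found once in each activating receptor promoter, starting 55 bases before the RefSeq start in Fcgr1, 6 in Fcgr3 and 22 in Fcgr4. It was not found in the windows of Fcgr2b, Fcer1g and Fcgrt. The windows of Fcgr3 and Fcgr2b lie inside the GENCODE spans given above, so their RefSeq starts differ from the starts of those spans. TTCNNNGAA was found only in Fcgr1 among the 6, 109 bases before the start. Of 27025 RefSeq promoter windows of the same kind, 28.3% held GAGGAA and 8.47% held TTCNNNGAA. The 2 motifs do not overlap in these windows. A match describes the letters only.

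The members fell into different cellular patterns. The labels were made from the same counts, so the levels by cell type are given as a description. Fcer1g was highest in granulocytes, at 1177 CPM over all cells (exact Poisson 95% interval 1118 to 1239), followed by neutrophils at 848.9, macrophages at 799.8 and monocytes at 486. Over mice with at least 10 cells of a type, granulocytes had 958.6 CPM ± 302.2 (SD, n = 10), neutrophils 779.5 ± 263 (SD, n = 4), macrophages 729.5 ± 228 (SD, n = 10) and monocytes 404.4 ± 229.3 (SD, n = 10). These neighbours thus lay within 1.5 SD of each other. Dendritic cells (261.8 ± 123.4, SD, n = 9) and T cells (135.5 ± 94.9, SD, n = 10) lay lower. By the same measure dendritic cells were within 1.5 SD of monocytes, and T cells within 1.5 SD of dendritic cells. B cells and the keratinocytes labelled Basal III cells had the lowest pooled levels, 32.2 and 13.3 CPM. All intervals and limits of detection here cover counting error only.

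Fcgr3, the low-affinity activating receptor, followed the same order, with pooled levels of 219.4 CPM in granulocytes (interval 194.1 to 247), 215.4 in neutrophils, 153.9 in macrophages and 67.2 in monocytes. Over mice the granulocyte level was 177.9 ± 100.9 CPM and the macrophage level 135.8 ± 69.1 CPM (SD, n = 10 each), so these 2 did not differ beyond their spread. Basal III cells had no Fcgr3 UMI in 768 cells, and T cells had 13.2 CPM.

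Fcgr1, the high-affinity receptor, was sparse and had another distribution. It was seen in monocytes (17 UMIs, 29.3 CPM, interval 17.1 to 46.9) and macrophages (24 UMIs, 21.2 CPM, interval 13.6 to 31.6), with 2 UMIs in dendritic cells and 1 each in endothelial cells, T cells and labelled myocytes. The monocyte and macrophage intervals overlapped. Granulocytes had none in 1207 cells, with an upper limit of 2.96 CPM. Fcgr4, a receptor of intermediate affinity, had 13 UMIs in granulocytes (10.4 CPM, interval 5.56 to 17.9), 3 in neutrophils, 3 in macrophages and 1 each in monocytes and endothelial cells. It was not detected in the other labels.

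Fcgr2b, the inhibitory receptor, was spread over more labels. Pooled levels were 75.2 CPM in macrophages (interval 60.1 to 93), 63.1 in dendritic cells, 46.7 in B cells (33.6 to 63.1), 46.5 in monocytes and 45.8 in granulocytes (34.7 to 59.3). Over mice, macrophages had 72.4 ± 43.1, granulocytes 57.5 ± 22.9 and B cells 48.9 ± 26.1 CPM (SD, n = 10 each), so that neighbours in this order did not differ beyond their spread. Labelled myocytes had 25 CPM, and all 30 of these UMIs came from the muscle of S6. The mean over the 4 mice with such cells was 6.71 CPM, and no reading of Fcgr2b in myocytes is drawn from them.

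Fcgrt was the member with its highest level outside blood-derived cells. It was highest in fibroblasts (136 UMIs, 93.9 CPM, interval 78.8 to 111.1), followed by endothelial cells at 53.6, monocytes at 44.8 and macrophages at 39.8 CPM. Over mice, fibroblasts had 85.7 ± 55 CPM, macrophages 39.2 ± 23.8 and monocytes 35.6 ± 30 (SD, n = 10 each), so the spread between mice was as large as these steps. Granulocytes, where Fcer1g was highest, had 4.02 CPM of Fcgrt (interval 1.3 to 9.38).

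**Figure D1:**
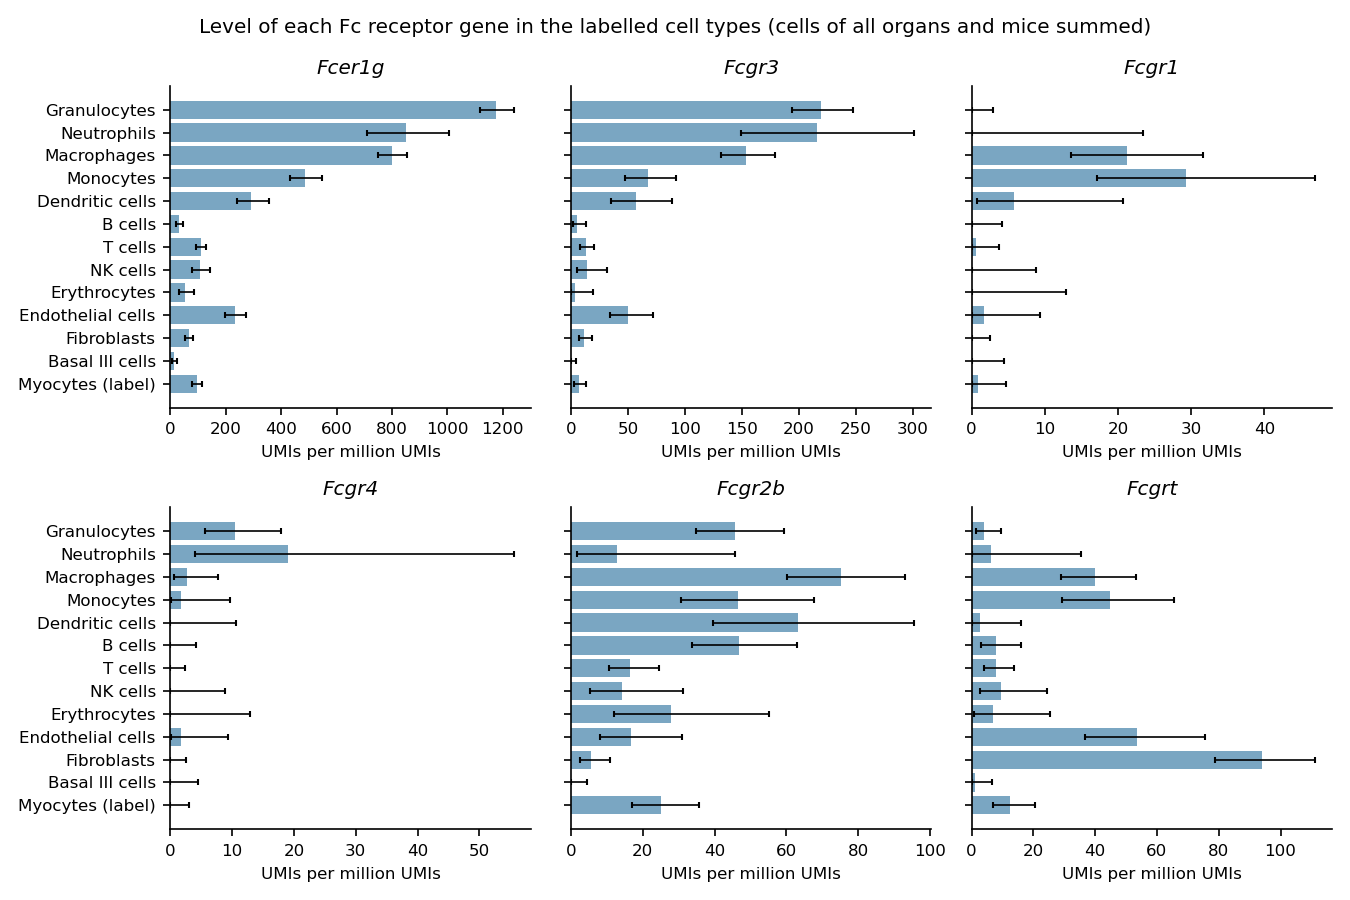
Level of each member in the 13 labelled cell types, in CPM with the cells of all organs and mice summed; bars are pooled levels and lines exact Poisson 95% intervals, and each panel has its own axis. Fcer1g and Fcgr3 peak in granulocytes (1177 and 219.4 CPM), Fcgr1 in monocytes and macrophages, Fcgr2b in macrophages (75.2 CPM) and Fcgrt in fibroblasts (93.9 CPM).

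Shares of cells gave the same picture against cells that should lack the activating receptors. An Fcer1g UMI was found in 60.8% of granulocytes, 40% of macrophages and 27.9% of monocytes, and in 6.32% of T cells and 0.781% of Basal III cells. Median depths were 844, 657, 815, 611 and 814.5 UMIs per cell. With every cell thinned to 400 UMIs, which left out no cell, the shares were 36.7%, 24.9%, 14.7%, 2.91% and 0.391%. An Fcgr3 UMI was found in 19.1% of granulocytes (8.62% thinned) and 9.69% of macrophages (4.66%), against 1.01% of T cells (0.336%). The Fcgr2b share of B cells, 2.7% (1.75% thinned, median 579 UMIs), was closer to the 1.29% of T cells (0.336%), and the Fcgrt share was 8.55% in fibroblasts (3.33%, median 809 UMIs) against 0.671% in T cells (0.392%).

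Over 35 combinations of an organ and a label that held at least 20 cells, the gene most like Fcer1g among 6667 was Fcgr3 itself, with a Pearson correlation of 0.88 of log2(CPM + 10), followed by Igsf6 and Cd14 (0.86 each). Fcgr3 was most like Igsf6 (0.91), Clec7a (0.90) and Ccr1 (0.89), Fcgr1 like Naaa, Aif1 and Msr1 (0.91 each), and Fcgr4 like Cd300lf (0.85), Stfa2l1 (0.85) and 1700047M11Rik (0.82). Fcgr2b had weaker matches, Rnase2a (0.73), Rgs18 (0.72) and Samhd1 (0.71), and Fcgrt was most like Lpar1 (0.84), Fkbp7 (0.81) and Meg3 (0.80). Between members, Fcgr3 and Fcgr4 had 0.65, Fcgr2b and Fcer1g 0.50, and Fcer1g and Fcgrt 0.06. The points share libraries, mice and depth, so these values describe the table.

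The question of the design was which genes differ between CIA and healthy mice in each organ. UMIs were summed per mouse and tested with edgeR's quasi-likelihood test in 11 combinations of an organ and a label (at least 10 cells in each of 3 mice per group), and over all labelled cells of the 5 organs. In such organ sums, more cells of a type and more RNA per cell cannot be told apart. No member passed an adjusted p of 0.05 in any of the 16 comparisons. Fcer1g passed the filter on low counts in 8 comparisons and Fcgr3 in 2. Of these 10 tests 6 had an unadjusted p below 0.05 by edgeR and 2 passed with DESeq2, both for Fcer1g in the spleen. The organ sums contain the cells of the single labels, so these tests are not independent. Such a p was found for 252 of 2364 genes in the joint sum, 109 of 686 in the lung, 142 of 3634 in muscle and 189 of 2927 in the spleen. It was found for 57 of 273, 100 of 538 and 33 of 545 in macrophages of joint, lung and muscle and 78 of 456 in spleen monocytes. The share of genes called by DESeq2 is not given here. The 64 other tests were read from fits of every gene with at least 1 UMI, with 7 below an unadjusted p of 0.05, and in 22 cases a member had no UMI. In these fits the number of genes below it ran from 425 of 14604 in muscle macrophages to 1499 of 24079 in the joint sum. The share of all genes called in the filtered fits ran from 0% in skin and in spleen B cells to 10.3% in joint macrophages, with 1.68% in joint fibroblasts and 0.0511% in muscle T cells, so the members' count of none stands beside few calls in most comparisons. In the fits of every gene, the share called was 0.274% in the joint, 0.435% in the lung, 0.25% in muscle, 0.152% in skin and 0.747% in the spleen. By cell type it was 0.0714%, 0.193% and 0.0685% in macrophages of joint, lung and muscle, 0.52%, 0.0117% and 0.0766% in fibroblasts of joint, muscle and skin, 0.0818% in Basal III cells, 0.147% in muscle T cells, and 0.0831%, 0.485% and 0.0971% in B cells, monocytes and NK cells of the spleen.

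Fcer1g in spleen monocytes had the lowest adjusted p of the 10 tests that passed the filter. Its level was 154.6 CPM in H3, 169.7 in H4, 77.4 in H6 and 408.2 in H7, and ran from 449.3 to 798.3 CPM in the 6 CIA mice, with a median of 464.5. All 6 CIA mice lay above all 4 healthy mice, and H7 was the healthy mouse nearest to them. The means were 567.3 ± 168.9 CPM (SD, n = 6) in CIA and 202.5 ± 143 (SD, n = 4) in healthy mice, with a log2 fold change of 1.29 (SE 0.43), with an adjusted p of 0.105 by edgeR's quasi-likelihood test. In the same fit 6.36% of 456 genes were called. Among genes of at least 10 UMIs, 1.32% had every CIA mouse above every healthy mouse. DESeq2 gave a log2 fold change of 1.30 with an adjusted p of 0.0271, and over all 19 alternatives the log2 value ran from 1.05 to 2.38 and the adjusted p from 0.0214 to 0.538. Without H7 it was 1.77 (adjusted p = 0.0456 by edgeR). Within the experiment labelled CIA it was 1.21 (SE 0.57, adjusted p = 0.388), and the experiment labelled 2CIA held 1 healthy mouse, too few for a value of its own in any organ.

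Granulocyte RNA moved with this difference. All 4 granulocyte markers (Camp, Ngp, S100a8, S100a9) were above 0 in the spleen monocytes of both groups, and their summed level ran from 721.5 to 1021 CPM in healthy and from 2679 to 24010 CPM in CIA mice. Tyrobp, which encodes another adaptor of activating receptors, had a log2 fold change of 0.24 (SE 0.28, adjusted p = 0.842 by edgeR) in these cells. Over all organs, cells labelled monocytes held B cell receptor genes (Cd79a, Cd79b, Igkc, Ighm) at 42070 CPM summed, against 9579 in B cells. Their B cell markers summed to 296.4 CPM, against 1673 in B cells, and their monocyte markers to 1082, against 1608 in macrophages. The part of the granulocyte RNA or of the B cell receptor RNA in the Fcer1g difference was not tested.

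The whole spleen gave the same order. Fcer1g was at 107.7, 111.9, 73.4 and 95.8 CPM in H3, H4, H6 and H7, and ran from 148.8 to 452.3 CPM in CIA mice with a median of 251.1, so the groups did not overlap (0.746% of genes of at least 10 UMIs lay so). The log2 fold change was 1.46 (SE 0.40), with an adjusted p of 0.227 by edgeR, while 0.137% of genes were called. It was 1.50 with an adjusted p of 0.0292 by DESeq2 and 1.60 with an adjusted p of 0.0107 by edgeR without the filter, and 1.04 (SE 0.39, adjusted p = 0.716) within the experiment labelled CIA. Granulocytes and neutrophils made up 1.29% ± 1 of healthy (SD, n = 4) and 8.24% ± 6.47 of CIA spleen cells (SD, n = 6). Without them the log2 fold change was 1.34 (adjusted p = 0.207), and without monocytes it was 1.51 (adjusted p = 0.627), in both cases by edgeR.

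In joint macrophages, Fcer1g was at 556.7 CPM in H3, 336.1 in H4 and 674.3 in H7, and at 1087 in S1, 1158 in S3, 1283 in S5 and 501.7 in S8. The first 3 CIA mice lay above all healthy mice, and S8, with the lowest arthritis score, lay among them. S6, with 2 such cells, was left out. The log2 fold change was 0.87 (SE 0.36) with an adjusted p of 0.193 by edgeR, in a fit that called 10.3% of 273 genes, and 0.83 (SE 0.60, adjusted p = 0.699) within the experiment labelled CIA. Here too the summed granulocyte markers, all 4 above 0, ran from 924.4 to 8229 CPM in healthy and from 33190 to 59260 CPM in CIA mice, and their part was not tested. Tyrobp had a log2 fold change of 0.52 (SE 0.41, adjusted p = 0.568).

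In lung and muscle macrophages the groups differed by less than their spread. Lung macrophages had 577.9 ± 246.8 CPM of Fcer1g in healthy (SD, n = 4) and 606.9 ± 198.4 in CIA mice (SD, n = 6), which on the log2 scale was a change of 0.03 (SE 0.29, adjusted p = 0.965 by edgeR). Muscle macrophages had 924.6, 477.7 and 1057 CPM in H4, H6 and H7 and 867, 875.9, 1146 and 540.6 CPM in S2, S3, S5 and S6, a log2 fold change of 0.15 (SE 0.42, adjusted p = 0.967). The groups overlapped in both organs. These fits called 6.51% of genes in the lung and 0.183% in muscle. The difference of the CIA effect between organs was also tested: it was -0.93 (SE 0.48, adjusted p = 0.572) for lung minus joint, 0.81 (SE 0.53, adjusted p = 0.534) for joint minus muscle and -0.12 (SE 0.48, adjusted p = 0.979) for lung minus muscle, by edgeR, with 0.11%, 2.41% and 1.2% of genes called.

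**Figure D2:**
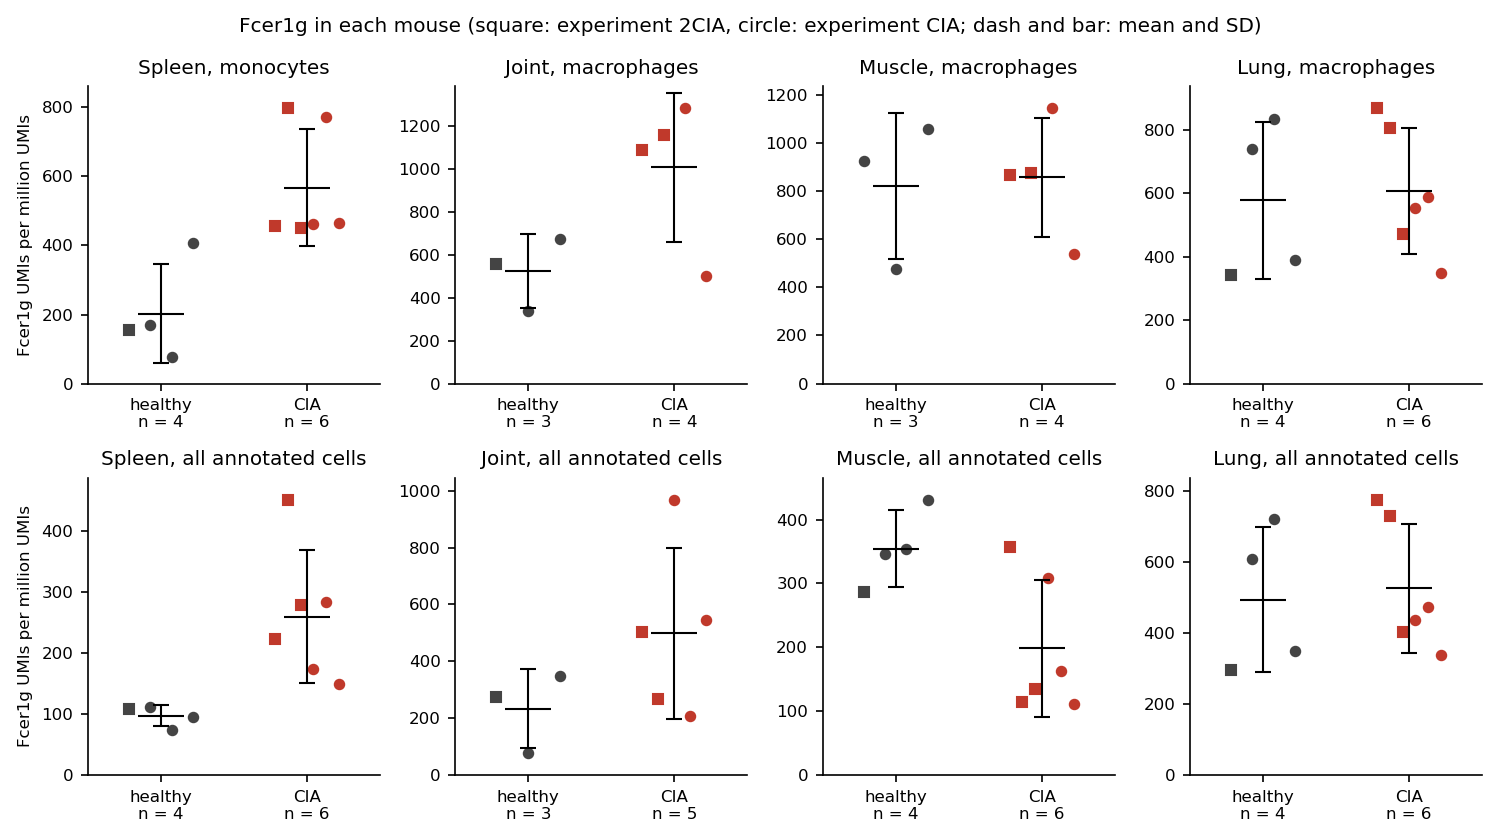
Level of Fcer1g in CPM in each mouse, in monocytes or macrophages of 4 organs (upper row) and in all annotated cells (lower row); squares are mice of the experiment labelled 2CIA and circles those of the experiment labelled CIA, black healthy and red CIA, with the mean and SD, and each panel has its own axis. In the spleen every CIA mouse lies above every healthy mouse in both rows (449.3 or more against 408.2 or less in monocytes), whereas the groups overlap in the other panels.

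Summed over the joint, Fcer1g was at 272.8, 78.4 and 347.6 CPM in H3, H4 and H7 and at 504.1, 267.1, 968.9, 207 and 546.7 CPM in S1, S3, S5, S6 and S8. CIA mice S1, S5 and S8 lay above the healthy mice and the other two among them. The log2 fold change was 1.42 (SE 0.64) with an adjusted p of 0.461 by edgeR, against 0.127% of genes called. Granulocytes and neutrophils were 8.91% ± 5.41 of healthy (SD, n = 3) and 33.7% ± 19.2 of CIA joint cells (SD, n = 5), and without them the log2 fold change was 0.86. Within the experiment labelled CIA it was 1.87 (SE 0.91, adjusted p = 0.703).

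Summed over muscle, Fcer1g pointed the other way. Healthy mice had 285.9 to 431.5 CPM (median 350.6), and CIA mice 111 to 356.8 CPM (median 149.1). CIA mice S2, S3, S6 and S8 lay below all healthy mice, whereas S1 and S5 lay among them. The log2 fold change was -1.06 (SE 0.41) with an adjusted p of 0.9997 by edgeR, and that of Fcgr3 was -1.31 (SE 0.61) with the same adjusted p, in a fit that called 0.055% of genes. Granulocytes and neutrophils were 19% ± 8.66 of healthy (SD, n = 4) and 2.15% ± 1.42 of CIA muscle cells (SD, n = 6). Without them the log2 fold change of Fcer1g was -0.05, and Fcgr3 no longer passed the filter. Within the experiment labelled CIA, Fcer1g had -1.05 (SE 0.50, adjusted p = 0.9993). B cells, in which no Fcer1g UMI was found in muscle, made up 1.16% ± 1.66 of healthy muscle cells (SD, n = 4). In CIA muscle they made up 10.8% ± 22.8 (SD, n = 6), with a maximum of 57.25% in S8. The muscle library of S8 is also the one that shared 36 cell barcodes with the spleen of the same mouse. Of the 1989 muscle cells of S6, 1492 were labelled myocytes. The part of these labels in the muscle sum was not tested. In the lung sum the log2 fold change of Fcer1g was 0.06 (SE 0.29, adjusted p = 0.966, with 4.96% of genes called).

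The cells that held the Fcer1g UMIs differed accordingly. In the joint, granulocytes and neutrophils held 38.8% of the 85 Fcer1g UMIs of healthy and 67.2% of the 1550 of CIA mice, and macrophages 45.9% and 19.4%. In muscle, granulocytes and neutrophils held 64.5% of 321 UMIs in healthy and 19.5% of 503 in CIA mice, where labelled myocytes held 21.7%. In the spleen, monocytes held 39.2% of 79 and 37.3% of 622 UMIs, and granulocytes with neutrophils 11.4% and 33.6%. Macrophages held 99.2% and 97.3% of those in the lung. These shares are over pooled cells and were not tested, and large libraries weigh most in them. Without S6 the CIA share of granulocytes and neutrophils was 5.96% of 235 UMIs in muscle, without S2 it was 20.7% of 232 in the spleen, and without S5 it was 49.5% of 410 in the joint.

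**Figure D3:**
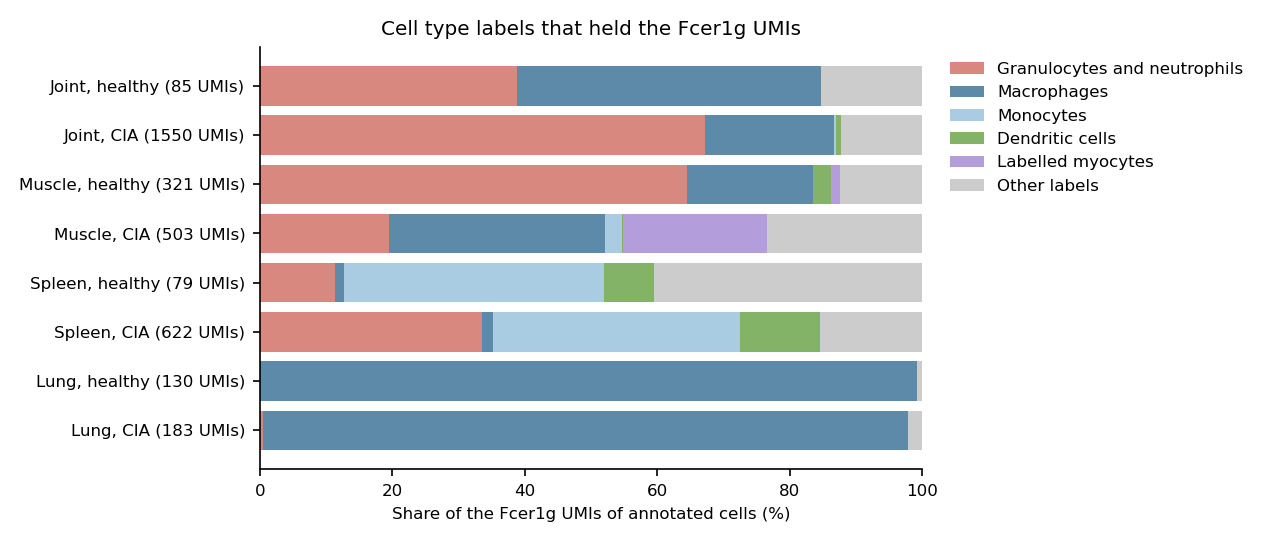
Share of the Fcer1g UMIs of annotated cells (in %) held by each group of cell type labels, for healthy and CIA mice of 4 organs, with mice pooled and the number of UMIs beside each bar. Granulocytes and neutrophils hold 67.2% in the CIA joint (49.5% without mouse S5) against 38.8% in the healthy joint, and 19.5% in CIA muscle (5.96% without mouse S6) against 64.5% in healthy muscle, while lung macrophages hold nearly all in both groups.

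Fcgr3 in the joint did not differ between the groups beyond its spread, and it was not tested against Fcer1g. It had 94.6, 7.13 and 152.9 CPM in H3, H4 and H7, and 104.9, 40.5, 184.4, 79.6 and 78.1 CPM in S1, S3, S5, S6 and S8. Only S5 lay above all healthy mice. The log2 fold change over the joint was 0.65 (SE 0.71) with an adjusted p of 0.765 by edgeR. In the other comparisons Fcgr3 was read without the filter: in joint macrophages its log2 value was 0.26 (SE 0.73), in lung macrophages -0.20 (SE 0.57) and in spleen monocytes 0.99 (SE 0.82), with adjusted p between 0.706 and 0.93. In these unfiltered fits the median of all genes itself lay between -0.14 and 1.15 on the log2 scale in the comparisons of CIA with healthy mice, so such values are to be read against it.

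Fcgr1 was detected in the spleen of CIA mice and not in that of healthy mice. It had 8 UMIs in S1, 10 in S2, 1 in S5 and 1 in S6, and none in S3, S8 or the 763958 spleen UMIs of healthy mice. The pooled CIA level was 10.2 CPM (interval 6.21 to 15.7), 2.59 times the limit of 3 counts over the healthy group (3.93 CPM). In spleen monocytes alone the counts were 16 and 0. There the pooled CIA level was 44.9 CPM (interval 25.7 to 73), 2.46 times the limit of 18.3 CPM. These ratios use the CIA level itself and are not lower bounds, and the mice are pooled in them. The adjusted p was 0.373 for the spleen and 0.525 for monocytes by edgeR without the filter, in fits that called 0.747% and 0.485% of genes. The UMIs came mostly from S1 and S2, both of the experiment labelled 2CIA, which held 1 healthy mouse. Disease therefore cannot be told apart from experiment in most of these counts. In lung macrophages the counts went the other way, 5 UMIs in healthy and 1 in CIA mice (adjusted p = 0.586). Fcgr4 had 13 UMIs in the joint, 10 in S5 and 3 in S1, and none in healthy joints, where fewer UMIs were counted and the limit of 3 counts (7.66 CPM) lies above the CIA level of 6.25 CPM.

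Fcgr2b in joint macrophages was lower in all 4 CIA mice than in all 3 healthy mice. Its level was 266.2 CPM in H3, 168.1 in H4 and 168.6 in H7 (16 UMIs in all), and 53.3 in S1, 55.2 in S3, 144.2 in S5 and 62.7 in S8 (26 UMIs). The groups did not overlap, which held in this direction for 4.15% of genes of at least 10 UMIs. The unfiltered fit gave a log2 fold change of -0.73 (SE 0.78, adjusted p = 0.627 by edgeR), where the median of all genes was 0.77 and 0.0714% were called. In muscle macrophages the values went the other way, with 0, 0 and 90.6 CPM in H4, H6 and H7 and 118.2, 159.2, 111.8 and 72.1 CPM in S2, S3, S5 and S6. The log2 fold change was 1.53 (SE 1.05, adjusted p = 0.669), where the median of all genes was 1 and 0.0685% were called. Healthy mouse H3, left out with 5 such cells, had 1 Fcgr2b UMI there (158.3 CPM), close to the highest CIA mouse. The difference of these CIA effects, joint minus muscle, was -2.09 (SE 1.24) with an adjusted p of 0.9999. The summed granulocyte markers, all 4 above 0, also went opposite ways in these cells, from 924.4 to 8229 CPM in healthy and 33190 to 59260 CPM in CIA joint macrophages and from 7261 to 39550 CPM in healthy and 394.1 to 14730 CPM in CIA muscle macrophages, and their part was not tested.

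Spleen B cells are the lymphocytes in which Fcgr2b acts as a brake on the antigen receptor. There it was at 30.1 CPM in H3, 43.9 in H4, 97.2 in H6 and 78.6 in H7, and ran from 17.9 to 89.5 CPM in CIA mice with a median of 36. The groups overlapped, and the log2 fold change was -0.48 (SE 0.67, adjusted p = 0.833 by edgeR without the filter, 0.0831% of genes called). The spleen as a whole had 38.9 ± 8.83 CPM in healthy (SD, n = 4) and 39 ± 15.4 CPM in CIA mice (SD, n = 6).

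Fcgrt in joint fibroblasts was at 253.2 CPM in H3, 139.3 in H4 and 103.5 in H7 (29 UMIs in all), and at 83.9 in S1, 14.6 in S3 and 92.2 in S5 (45 UMIs). The 3 CIA mice lay below the 3 healthy mice, as 5.61% of genes of at least 10 UMIs did. The log2 fold change was -0.83 (SE 0.63, adjusted p = 0.719 by edgeR without the filter, with a median over genes of 0.63 and 0.52% called). The 4 granulocyte markers, all above 0, summed to 1393 to 5900 CPM in healthy and 13230 to 29490 CPM in CIA joint fibroblasts, and their part was not tested. Over the whole joint, the level was 76.6 ± 10.8 CPM in healthy (SD, n = 3) and 21.7 ± 21.1 CPM in CIA mice (SD, n = 5), all 5 below the healthy mice, as for 3.17% of genes (log2 fold change -1.04, SE 0.67, adjusted p = 0.701). Fibroblasts held 93.5% of the Fcgrt UMIs of healthy joints, and made up 48.6% ± 5.65 of healthy (SD, n = 3) and 22.4% ± 15.2 of CIA joint cells (SD, n = 5), and their part in the joint sum was not tested.

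In muscle fibroblasts, Fcgrt averaged 91.8 ± 46.4 in healthy and 130.1 ± 41.9 CPM in diseased mice (SD, n = 4 each), and the groups overlapped. The log2 fold change without the filter was 1.19 (SE 0.91, adjusted p = 0.666), close to the median over genes of 1.15 in that fit. In muscle macrophages, 11 UMIs were counted in CIA mice and none in H4, H6 and H7 (adjusted p = 0.669), but healthy mouse H3, left out with 5 such cells, had Fcgrt at 316.6 CPM. B2m, the partner of Fcgrt, was not called in any comparison of CIA with healthy mice. Its log2 fold change was 1.20 (SE 0.39, adjusted p = 0.18) in joint fibroblasts, 0.95 (SE 0.35, adjusted p = 0.145) in joint macrophages and 0.56 (SE 0.23, adjusted p = 0.182) in lung macrophages, by edgeR.

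**Figure D4:**
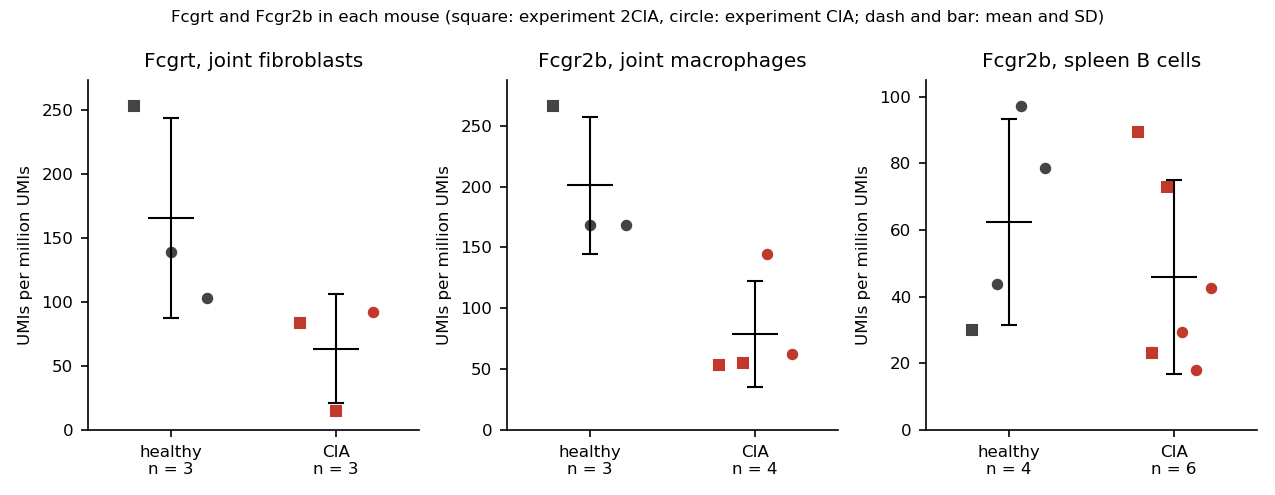
Fcgrt in joint fibroblasts and Fcgr2b in joint macrophages and spleen B cells, in CPM of each mouse with at least 10 such cells; squares are mice of the experiment labelled 2CIA, circles those of the experiment labelled CIA, black healthy and red CIA, with the mean and SD. The CIA mice lie below the healthy mice in the first panels from the left (at most 92.2 against at least 103.5 CPM, and at most 144.2 against at least 168.1 CPM) and overlap with them in spleen B cells.

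Macrophages were the cell type in which the members could be compared between organs, in one fit over lung, joint and muscle. The values of this fit, and of the differences of the CIA effect, leave out the pairing of samples by mouse. The outcome with the mouse as a block is given below. Fcer1g did not differ beyond its error: the log2 difference was -0.21 (SE 0.24, adjusted p = 0.641) for lung against joint, -0.33 (SE 0.24, adjusted p = 0.313) for lung against muscle and -0.12 (SE 0.26, adjusted p = 0.86) for joint against muscle, by edgeR, where 15.6%, 26.9% and 1.64% of 913 genes were called. Fcgr2b, read without the filter, had a log2 difference of -1.98 (SE 0.56) for lung against joint, with an adjusted p of 0.0526 against 0.721% of genes called. In fits of every gene, 0.903% were called for lung against muscle and 0.123% for joint against muscle, and for the differences of the CIA effect 0% (lung minus joint), 0.054% (lung minus muscle) and 0.0932% (joint minus muscle). No member was called in these 6 contrasts by edgeR or DESeq2. None of the 6 filtered tests, and 3 of the 30 unfiltered ones, had an unadjusted p below 0.05. In the unfiltered fit, the number of genes with such a p ran from 786 to 1888 of 20377 over the contrasts.

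The balance of activating and inhibitory receptors was described by the activating share, the UMIs of Fcgr1, Fcgr3 and Fcgr4 as a percentage of these and Fcgr2b. Oligo-dT UMIs are counted near the transcript end and were not divided by length. The pooled share was 94.9% in neutrophils (39 UMIs), 83.4% in granulocytes (exact binomial 95% interval 79 to 87.2, 343 UMIs), 70.3% in macrophages (64.6 to 75.5, 286 UMIs), 67.9% in monocytes (84 UMIs), 50% in dendritic cells (44 UMIs) and 10.6% in B cells (3.55 to 23.1, 47 UMIs). Fcgr3 gave 627 of the 694 activating UMIs, and the macrophage and monocyte intervals overlapped. By disease the pooled share was 84.1% in CIA and 80% in healthy granulocytes, and 70% and 70.8% in macrophages. By organ it was 70.7% in CIA and 52.9% in healthy macrophages of the joint, 61.8% and 80% in muscle, and 81.1% in both groups in the lung.

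Over all labelled cells of an organ, the pooled share was 56.4% in healthy (42.3 to 69.7) and 81.2% in CIA joints (77 to 85), 30.2% (17.2 to 46.1) and 55.8% (48.6 to 62.8) in the spleen, 79.5% (69.6 to 87.4) and 52.3% (44 to 60.5) in muscle, and 82.1% and 82.5% in the lung. The pooled shares of joint and spleen were thus higher and that of muscle lower in CIA mice. The intervals of all cells did not overlap, but they leave out the spread between mice, and the difference was not tested. Without its largest library, the CIA share was 76.5% in the joint (67.7 to 83.9), 47% in the spleen (35.9 to 58.3) and 60% in muscle (48 to 71.2), and each of these intervals overlapped that of the healthy mice. Without granulocytes and neutrophils the shares of healthy and CIA mice were 50% (34.2 to 65.8) and 72.4% (64.4 to 79.5) in the joint, 28.6% (15.7 to 44.6) and 50.9% (42.9 to 59) in the spleen and 71.9% (53.2 to 86.2) and 46.1% (37.2 to 55.1) in muscle, again with overlapping intervals. Without labelled myocytes it was 62.8% (53.2 to 71.7) in CIA muscle.

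B cells, the label with the lowest activating share, moved with the spleen value. They held 66.7% of the 30 Fcgr2b UMIs of healthy and 20.5% of the 88 of CIA spleens, and made up 48.9% ± 9.13 of healthy (SD, n = 4) and 34.1% ± 17.7 of CIA spleen cells (SD, n = 6). Without B cells the spleen share was 52.4% in healthy (29.8 to 74.3, 21 UMIs) and 60.7% in CIA mice (53.1 to 67.9, 178 UMIs). The healthy interval, from 21 UMIs, is too wide for its overlap to decide anything. The part of the B cells in the spleen value was not tested.

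Mice with at least 10 such UMIs were too few for a comparison of means in any organ and cell type. Over all labelled cells this was possible in muscle alone. There the share was 63.6%, 83.3% and 82.2% in H4, H6 and H7, and 52.9%, 70% and 44.7% in S2, S5 and S6. S5 lay among the healthy mice and the others below them. The means were 76.4% ± 11.1 and 55.9% ± 12.9 (SD, n = 3 each) and the difference was -20.5 percentage points, which was not tested. In the spleen, H4 had 27.3% of 22 UMIs and the CIA mice with at least 10 had 45.2% of 42 (S1), 62.1% of 116 (S2), 50% of 10 (S5), 54.5% of 11 (S6) and 33.3% of 12 (S8).

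**Figure D5:**
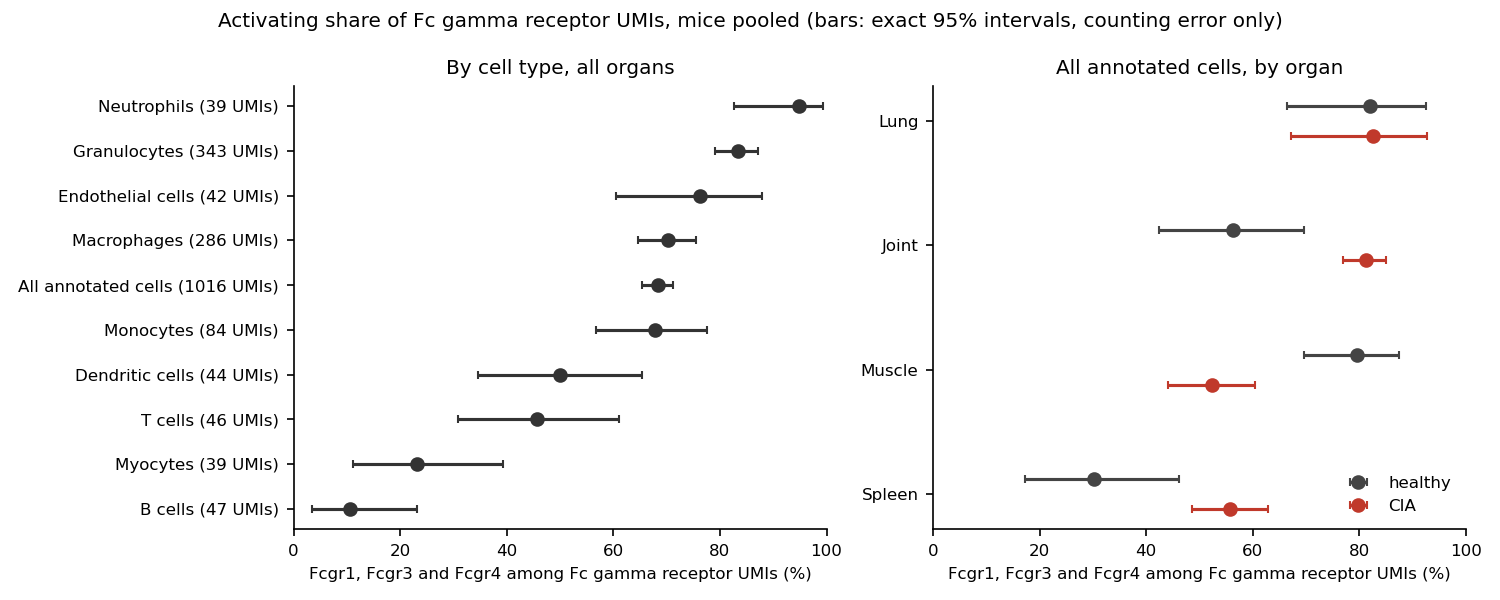
Activating share of the Fc gamma receptor UMIs (in %) by cell type (left, all organs and mice pooled, with the number of UMIs) and by organ for healthy (black) and CIA mice (red) over all annotated cells (right); points are pooled shares and lines exact binomial 95% intervals. The share runs from 10.6% in B cells to 94.9% in neutrophils, and is higher in CIA than in healthy joint (81.2% against 56.4%) and spleen (55.8% against 30.2%) and lower in muscle (52.3% against 79.5%); these intervals overlap when the largest CIA library of each organ is left out.

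Other genes of the pathway were read from 3 lists: 13 genes of the Fc receptor family and its binding partners, 18 of activating signalling such as Syk and Lyn, and 11 of inhibitory signalling such as Inpp5d and Ptpn6. In the 16 comparisons of CIA with healthy mice, 68 tests of such genes passed the filter, none was called by edgeR or DESeq2, and 9 had an unadjusted p below 0.05. These were 6 tests of B2m, Rac2 and Pik3r1 with positive and Csk with a negative log2 fold change. Rac2, a GTPase of the phagocyte oxidase, had 1.62 (SE 0.70, adjusted p = 0.429) in the joint. Over all genes, an unadjusted p below 0.05 was found for 180 of 1014 in joint fibroblasts, 11 of 173 in muscle fibroblasts and 124 of 1957 in muscle T cells. Such counts for the other fits concerned are given above. Between organs, B2m was lower in lung than in muscle macrophages by a log2 difference of -0.83 (SE 0.22, adjusted p = 0.00558), the only pathway gene called by edgeR.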

How the data were processed

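Single-cell RNA of 48 samples was sequenced by the authors, who deposited 1 table of raw UMI counts per gene and cell (bcl2fastq, Drop-seq tools, Picard and STAR). They also deposited a cell type label for 12096 of 13240 cells. Labels came from a reference-based method and were then checked, or for clusters without a reference assigned, by marker genes. Their methods name GRCm38 as the reference, whereas the submitters' processing notes also list GRCh38 and mm9; coordinates were taken from GENCODE vM21 on GRCm38. Their filters on cells and cells of many transcripts were kept, and no doublet caller was run. Counts were summed per mouse, organ and label (at least 10 cells) and tested with edgeR 4.0.16 (R 4.3.3; TMM, filterByExpr, quasi-likelihood test, Benjamini-Hochberg over all genes, threshold 0.05). DESeq2 1.42.0 was the other tool. Scripts were tested on simulated data. Depth was 17748 to 1645734 labelled UMIs per sample (median 124585.5), so the counting error is large for Fcgr1 and Fcgr4. The p-values measure the spread between mice. The members and gene lists were chosen with earlier results of these data known. Named were the 6 members, B2m, Tyrobp, pathway genes past the threshold and the 3 genes most like each member; Rac2, Pik3r1 and Csk were named after their values were seen. The organ sums without granulocytes or monocytes, the activating share over all labelled cells or without B cells, and pooled shares without the largest library were added after the data were seen. Macrophage samples of lung, joint and muscle are paired by mouse, since they come from the same animals; numbers shared by a healthy and a CIA mouse (3 and 6) mark different animals and pair nothing.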

Additional observations from a re-analysis of the deposited data

Results flagged for a closer look

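The estimated CIA effect on Fcgr2b had opposite signs in the macrophages of joint and muscle, and neither was called. The unfiltered fits had a median over all genes of 0.77 in joint and 1 in muscle macrophages on the log2 scale. All 4 CIA mice lay below the healthy mice in the joint, and the CIA mean was higher in muscle, where 3 healthy mice had enough cells. H3, left out there with 5 cells, had 158.3 CPM. Granulocyte markers went opposite ways too, from a mean of 4906 to 46040 CPM in joint and from 20300 to 7125 CPM in muscle macrophages, and their part was not tested. The difference of the effects was tested and was -2.0906 on the log2 scale (SE 1.24, adjusted p = 0.9999 by edgeR). Cells without a cell type label, which no comparison used, also held member UMIs: Fcer1g was at 254.7 CPM over 767 unlabelled cells of CIA mice (116 UMIs) and at 100.9 CPM over 377 of healthy mice (25 UMIs). By mouse the level ran from 82.5 to 422.4 CPM in CIA and from 44.1 to 139.2 CPM in healthy mice, and the groups overlapped. Of 16 groups tested for a mouse far from the others, 0 had one.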

How the results depend on the processing

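Of 364 counts of members called under an alternative, 359 stayed within 1.5 times the reported count. In the spleen as a whole 1 member, Fcer1g, was called with DESeq2 and 1 without the filter on low counts, in place of 0. In spleen monocytes 1 was called with DESeq2, 1 with plain library sizes (log2 1.63, adjusted p = 0.0214) and 0 to 1 with a mouse left out, the 1 without healthy mouse H7 (1.77, adjusted p = 0.0456). Of the pathway genes, 0 to 1 were called in joint fibroblasts (B2m, without S3) and in joint against muscle macrophages (B2m, without S5) with a mouse left out; in lung against joint macrophages 1 (Dok2) was called without the filter; and in lung against muscle 0 were called without the filter and 0 to 1 with a mouse left out (0 without H6). The log2 fold changes of Fcer1g that lay near 0 changed sign. In the lung sum it was -0.37 within the experiment labelled CIA and ran from -0.0645 to 0.234 with a mouse left out. In lung macrophages it was -0.0293 without the filter, -0.37 within that experiment and between -0.1187 and 0.1645 with a mouse left out. With a mouse left out it ran from -0.189 to 0.4677 in muscle macrophages, from -0.2852 to 0.0324 in joint against muscle macrophages, and from -0.5163 to 0.2875 for the CIA effect in lung minus muscle, which was 0.0014 with plain library sizes. These were 19 of 264 values, and 240 kept their direction and their side of the threshold.

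With the mouse number as a block, 0 members were called in 8 comparisons. Fcer1g then had 2.38 (adjusted p = 0.0566) in spleen monocytes, -0.16 in the lung and -0.0759 in lung macrophages. Same-numbered mice are different animals, and their deviations correlated between -0.338 and 0.337, so the number pairs nothing. With the mouse as a block, which is a true pairing, no member was called in the 6 macrophage contrasts.

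As means over mice, labelled myocytes had 6.71 CPM of Fcgr2b and 3.36 of Fcgrt, in place of 25 and 12.5 pooled. The activating share in muscle stayed within 1 SD under all 15 alternatives. The cause of these changes was not tested. Fcgr1 and Fcgr4, with 46 and 21 UMIs, allow no statement about absence.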

Other observations

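Endothelial cells held Fcer1g at 232.7 CPM (139 UMIs in 553 cells) and Fcgr3 at 50.2 CPM (30 UMIs), and an Fcer1g UMI was found in 17.4% of them (7.05% when thinned to 400 UMIs), against 6.58% of fibroblasts (2.19%) at a similar median depth of 804 and 809 UMIs. Their 4 granulocyte markers had a summed level of 51220 CPM, against 10330 CPM in fibroblasts, and the part of that RNA in their Fcer1g level was not tested. Of NK cells, in which Fcgr3 and Fcer1g are known to act, 0.794% had an Fcgr3 UMI and 5.87% an Fcer1g UMI, shares close to those of T cells (1.01% and 6.32%) at median depths of 580 and 611 UMIs. Skin held few member UMIs: 28 of Fcer1g, 13 of Fcgrt, 4 of Fcgr3, 2 of Fcgr2b, 1 of Fcgr1 and 0 of Fcgr4 over 10 mice.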
